A study of Mus musculus with 16 samples.

Results

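The microRNA family of miR-148 and miR-152 was followed in cDC1s sorted from the spleens of C57BL6 mice and profiled by small RNA sequencing. These type 1 conventional dendritic cells excel at presenting captured antigen to CD8+ T cells. The family has 3 members, 3 of the 853 mature microRNAs in the count table: miR-148a-3p (MIMAT0000516), miR-148b-3p (MIMAT0000580) and miR-152-3p (MIMAT0000162). They were chosen by their shared seed around miR-148a-3p, whose lower level in Xbp1-deficient cells was known from an earlier analysis of the same libraries. Values of the Xbp1 line are therefore given as a description without a test, and so are the comparisons that use its libraries. That this comparison led to the choice is an assumption, since the values used are not recorded. The compound line shares no library with it and is where the members were tested. Its values too had been seen before, and the filter, scaling and spread of the fit came from all 16 libraries. The test is therefore not independent of the choice.

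There were 16 libraries in 4 groups of 4. Xbp1-deficient cells (Xbp1 KO) stood against the wild type of their line, and cells deficient in both Xbp1 and Ire1a (Xbp1-Ire1 KO, here compound-deficient) stood against the wild type of theirs. The labels give neither the ages of the mice nor the alleles or the Cre driver behind the deletions, and do not tell if each replicate was its own mouse, so the p-values speak only of the spread among these libraries, which may be technical. The transcripts of Xbp1 and Ire1a and the messenger RNAs that define cDC1s are not microRNAs, so neither the genotype nor the cell type was checked here. Total counts ran from 783372 to 1403393 in Xbp1-deficient cells, from 400210 to 1103001 in Xbp1-line wild type, from 175165 to 978134 in compound-deficient cells and from 332923 to 882108 in compound-line wild type.

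A microRNA is cut from a hairpin precursor by Drosha and Dicer and guides an Argonaute protein to messenger RNAs that pair with its seed, the bases next to its 5′ end, so members of a seed family can act on the same targets. In mouse dendritic cells, miR-148a and its relatives are known to lower MHC class II display and cytokine output through the kinase subunit CaMKIIα, and in human cells miR-148a is known to repress the DNA methyltransferase DNMT1. IRE1 senses unfolded protein in the endoplasmic reticulum. Its ribonuclease domain splices the Xbp1 messenger RNA, so that the transcription factor XBP1 is made, and has been reported to cut further RNAs, some microRNA precursors among them.

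The mature sequences are shown because they define the family and because they are close enough for reads to be shared between rows. They are from RefSeq on GRCm38.p6, written 5′ to 3′ with the seed, bases 2 to 8, in capitals, and all 3 members were matched by name.
miR-148a-3p: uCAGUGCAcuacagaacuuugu
miR-148b-3p: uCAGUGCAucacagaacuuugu
miR-152-3p: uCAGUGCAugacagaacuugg
Of 1738 mature mouse entries in that table, the 3 members alone carried these letters at bases 2 to 8. Another 7 entries, miR-130a-3p, miR-130b-3p and miR-301a-3p among them, began with the same letters at bases 1 to 7. Counted from the 5′ end, miR-148a-3p and miR-148b-3p had 20 of 22 bases in common and differed by C9U and U10C. Between miR-148b-3p and miR-152-3p, 19 of 21 compared bases were the same, with C10G and U20G as the differences. Between miR-148a-3p and miR-152-3p, 18 of 21 were the same, with C9U, U10G and U20G. How many mismatches the counting allowed is not given in the sources used here. Reads of one member that carry errors may have been counted in another.

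The members come from separate loci. Mir148a lies at chr6:51269812-51269910 on the minus strand, inside no other annotated gene, with Nfe2l3 as the nearest coding gene on one side at 162.8 kb and Npvf on the other at 615.4 kb (GENCODE M21, GRCm38). Mir148b lies at chr15:103285125-103285221 on the plus strand within an intron of Copz1, and Mir152 at chr11:96850393-96850465 on the plus strand within an intron of Copz2. Copz1 and Copz2 encode paralogous subunits of the COPI vesicle coat and run on the same strand as the hairpins in them. The precursors are shown because they are what a ribonuclease such as IRE1 would meet, with both mature arms in capitals.
Mir148a: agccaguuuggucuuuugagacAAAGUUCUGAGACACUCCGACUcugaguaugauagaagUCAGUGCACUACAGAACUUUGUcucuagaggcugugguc
Mir148b: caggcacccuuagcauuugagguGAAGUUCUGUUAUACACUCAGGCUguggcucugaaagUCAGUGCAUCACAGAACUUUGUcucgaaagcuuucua
Mir152: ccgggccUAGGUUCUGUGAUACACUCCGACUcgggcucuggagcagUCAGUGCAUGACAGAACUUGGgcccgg
The letters CUGCAG, known as a preferred cleavage motif of IRE1, were searched on the transcribed strand. They occurred in 75 of 1005 mouse hairpins (7.46%) and in none of these 3, which says only that the letters are not in these windows.

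Nearly all reads of the family were miR-148a-3p. It took 95.7% ± 0.809 of the family's reads in Xbp1-deficient cells and 98.3% ± 0.326 in Xbp1-line wild type (SD, n = 4 in every group). It took 97.1% ± 0.567 in compound-deficient cells and 97.0% ± 0.572 in compound-line wild type. The family as a whole made up 0.447% ± 0.0402 of all counts in Xbp1-deficient cells, against 1.09% ± 0.255 in Xbp1-line wild type. In the compound line it made up 0.506% ± 0.0400 in compound-deficient cells, against 0.758% ± 0.0902 in compound-line wild type. The seed family as seen in these cells was thus mainly the product of the Mir148a locus in every group.

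miR-148a-3p was an abundant microRNA, with 872 to 13653 reads per library. By count it ranked 21 to 26 in Xbp1-deficient libraries and 13 to 18 in Xbp1-line wild type. It ranked 20 to 23 in compound-deficient libraries and 18 to 19 in compound-line wild type. Levels below are CPM, counts scaled to a common library size after correction by the trimmed mean of M values (TMM). In such bulk libraries a lower level per cell and fewer cells that carry a microRNA cannot be told apart.

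In Xbp1-deficient cells miR-148a-3p stood at 4430.5, 4647, 4240.2 and 4840.4 CPM in replicates 1 to 4. In Xbp1-line wild type it stood at 12888, 8136, 8392 and 12940.2 CPM in replicates 4, 5, 6 and 8. All deficient libraries lay below all wild-type libraries, the deficient ones close together and the wild-type ones in a higher and a lower pair. The higher pair held the deepest and the shallowest library of that group, with 1103001 and 400210 total counts. Ranges that did not overlap, with the deficient cells lower, occurred in 7.06% of the 255 microRNAs tested, and nothing is read from this here, since the family was chosen on this comparison. The means were 4539.6 ± 261 CPM and 10589 ± 2687 CPM (SD, n = 4 each), and the fitted log2 fold change was −1.22 (SE 0.15). Without the higher wild-type libraries in turn, or any other single library, it ran from −1.33 to −1.11. Of the 255 fitted log2 fold changes it was number 14 from the lowest, and their median was −0.07.

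In compound-deficient cells miR-148a-3p stood at 5142, 4662, 5563 and 4608 CPM in replicates 1 to 4. In compound-line wild type it stood at 7691, 6539, 7459 and 6000.1 CPM in replicates 1 to 4. Here too every deficient library lay below every wild-type library, with the highest deficient and the lowest wild-type library near each other. Such separation with the deficient cells lower occurred in 5.10% of the microRNAs tested. The means were 4993.8 ± 449 CPM and 6922 ± 791 CPM (SD, n = 4 each), which gave a fitted log2 fold change of −0.47 (SE 0.15, with a 95% interval of −0.79 to −0.15). It did not pass the threshold of 0.05: the edgeR quasi-likelihood adjusted p was 0.0815 and the unadjusted p 0.00607. In this comparison 15 of 255 microRNAs passed (5.88%), 9 higher and 6 lower, and 0 of the 2 members tested were among them. An unadjusted p under 0.05 was reached by 20.0% of all microRNAs and by both members.

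The call of miR-148a-3p in the compound line depended on the scaling, the filter and the method. Over 29 alternatives the log2 fold change stayed negative, from −0.75 to −0.42, and the adjusted p ran from 0.00325 to 0.467. In edgeR it was 0.0512 with DESeq2 size factors, 0.0269 with total counts, 0.00325 with upper-quartile scaling and 0.0231 with a filter of 10 CPM in 4 libraries. By method it was 0.0236 with DESeq2, 0.115 with limma voom and 0.467 with limma on the authors' deposited log2 values. That last run took in all 473 microRNAs with deposited values, so its adjustment covers a larger set as well. TMM scales every library to a reference library, which edgeR picks by default and which was compound-deficient replicate 2. With each of the 15 other libraries as reference, a choice added after the data were seen, the log2 fold change ran from −0.56 to −0.46, the edgeR adjusted p from 0.0182 to 0.0763, and 12 of the 15 passed. Relative to the median log2 fold change of all 255 microRNAs, a measure from which a change of scaling nearly cancels by construction, miR-148a-3p stood at −0.51 in the compound line and at −1.16 in the Xbp1 line. The scalings themselves moved the median of all microRNAs in the compound line by −0.12 for total counts and by −0.28 for upper quartiles, and the calls were split into 8 higher and 11 lower and into 3 higher and 21 lower with them.

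**Figure D1:**
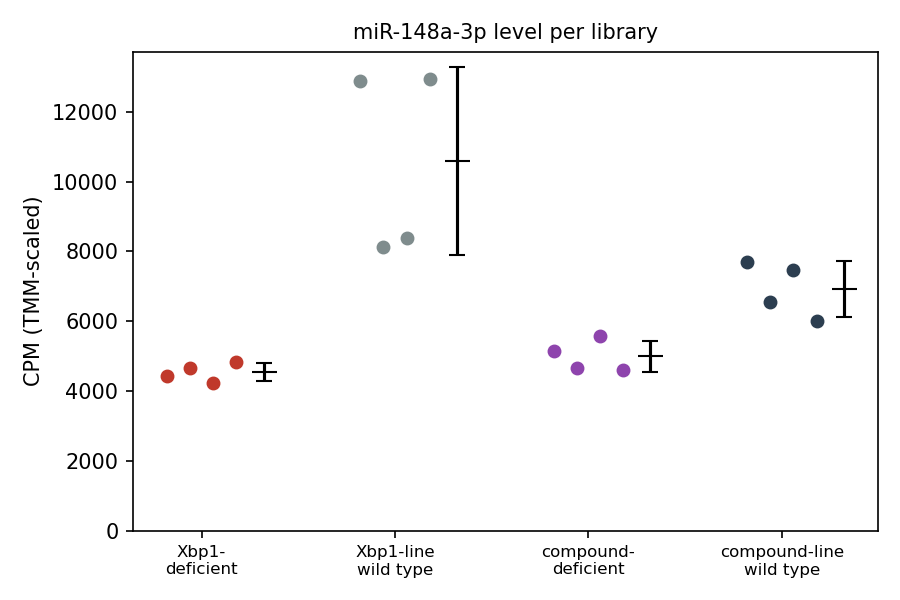
Level of miR-148a-3p in CPM on TMM-scaled library sizes (y axis) in each of the 16 libraries (points), by group, with the group mean and SD (bar, n = 4). In the Xbp1 line, on which the family was chosen, deficient libraries lie between 4240.2 and 4840.4 CPM and wild-type libraries between 8136 and 12940.2 CPM. In the compound line, deficient libraries lie between 4608 and 5563 CPM and wild-type libraries between 6000.1 and 7691 CPM. Such separation with the deficient cells lower occurred in 7.06% and 5.10% of the 255 microRNAs tested.

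**Figure D2:**
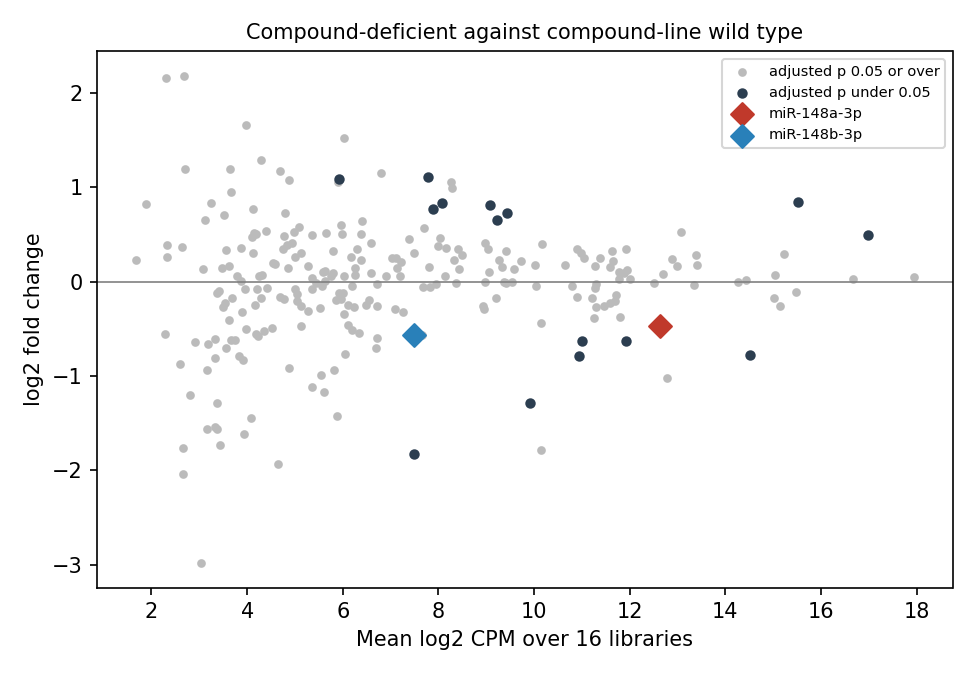
Log2 fold change of compound-deficient cells against compound-line wild type (y axis) by mean log2 CPM over the 16 libraries (x axis) for the 255 microRNAs tested (points). Dark points are the 15 that passed at an adjusted p under 0.05, and diamonds mark miR-148a-3p at −0.47 and miR-148b-3p at −0.57, which did not pass.

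miR-148b-3p was scarcer, with 24 to 295 reads per library, and ranked 86 to 109 by count over all libraries. In Xbp1-deficient cells it stood at 171, 182, 237 and 205 CPM in replicates 1 to 4. In Xbp1-line wild type it stood at 169.9, 166, 160.1 and 191 CPM in replicates 4, 5, 6 and 8. The ranges overlapped. The means were 199 ± 29.2 CPM and 172 ± 13.6 CPM (SD, n = 4 each), and the fitted log2 fold change was 0.21 (SE 0.22), opposite in sign to that of miR-148a-3p and about the size of its own error.

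In compound-deficient cells miR-148b-3p stood at 122, 175, 154 and 127 CPM in replicates 1 to 4. In compound-line wild type it stood at 282, 183, 255 and 136 CPM in replicates 1 to 4. The wild-type values spread widely, and wild-type replicate 4 lay within the deficient range. The means were 145 ± 24.7 CPM and 214 ± 66.7 CPM (SD, n = 4 each), which gave a fitted log2 fold change of −0.57 (SE 0.23, with a 95% interval of −1.04 to −0.095). It did not pass, with an edgeR quasi-likelihood adjusted p of 0.158 and an unadjusted p of 0.0211. Without compound-line wild-type replicate 4 the log2 fold change was −0.73 and the edgeR adjusted p 0.0485, and with upper-quartile scaling they were −0.82 and 0.0226. The fitted changes of both members in this line, −0.47 and −0.57, compare with a median of 0.04 over all 255 microRNAs. Counted from the lowest, miR-148a-3p was number 51 and miR-148b-3p number 42, so many microRNAs had larger fitted decreases. This order takes no account of error. The SEs of the members were 0.15 and 0.23, against a median SE of 0.36 over all 255 microRNAs.

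miR-152-3p was at the edge of detection and did not pass the filter on low counts, so no fold change is given. It had 1, 0, 9 and 0 reads in Xbp1-deficient replicates 1 to 4. In Xbp1-line wild type it had 8, 3, 3 and 2 reads in replicates 4, 5, 6 and 8. In compound-deficient replicates 1 to 4 it had 2, 1, 0 and 0 reads, and in compound-line wild type 0, 1, 0 and 1. All 31 reads together came from 10 of the 16 libraries, and the most in one library was 9 in Xbp1-deficient replicate 3, the deepest of all. In the 6 libraries with no read, a count of 0 allows a level of up to 3.12 to 15.9 CPM (3 counts per library, counting error only). Its highest level was 7.55 CPM in Xbp1-line wild-type replicate 4, and the limit lay below that level in 4 of the 6 libraries. Summed over a group there were 10 reads among 4262383 counts in Xbp1-deficient cells and 16 among 3303053 in Xbp1-line wild type. There were 3 among 2096168 in compound-deficient cells and 2 among 2074428 in compound-line wild type. The most reads per count were in Xbp1-line wild type, where every library had at least 2, and differences between groups were not tested.

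**Figure D3:**
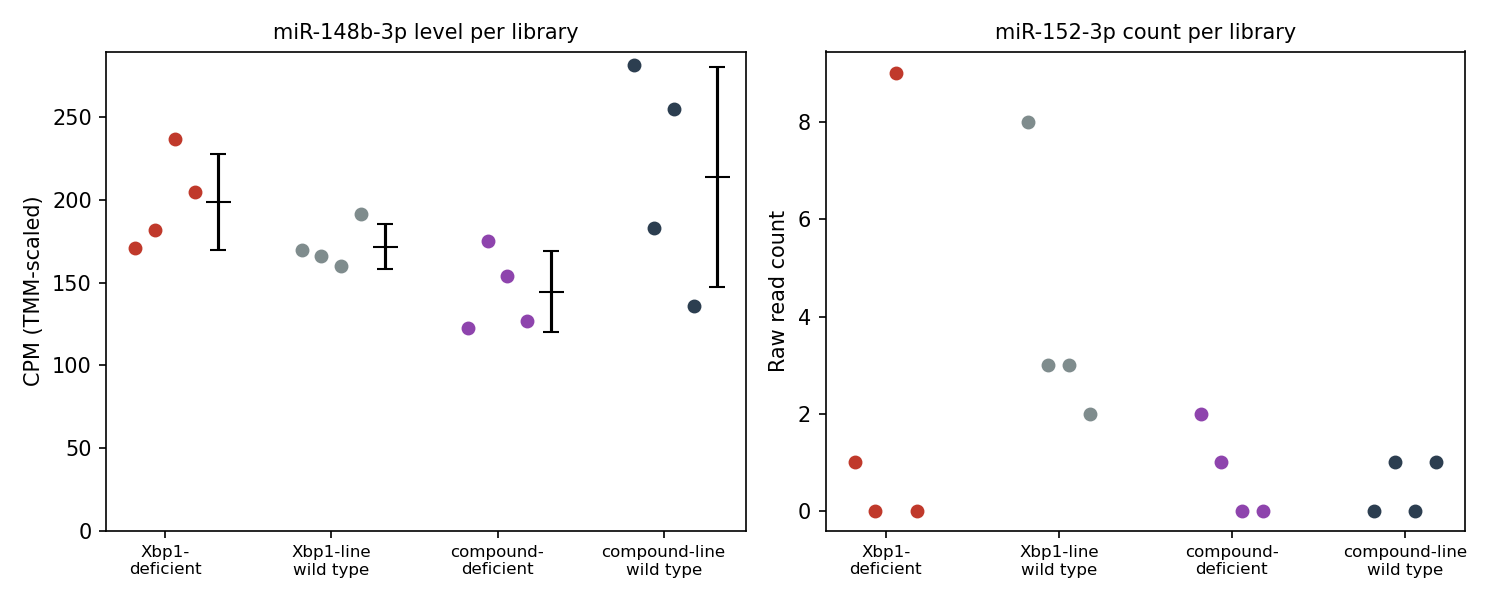
Level of miR-148b-3p in CPM on TMM-scaled library sizes with group mean and SD (left, n = 4) and raw read count of miR-152-3p (right) in each library (points), by group. miR-148b-3p lies between 122 and 282 CPM with overlapping groups, and miR-152-3p has at most 9 reads in a library.

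The ratio of miR-148b-3p to miR-148a-3p reads does not depend on library scaling. There were 3.86, 3.92, 5.59 and 4.24 miR-148b-3p reads per 100 miR-148a-3p reads in Xbp1-deficient replicates 1 to 4. In Xbp1-line wild type there were 1.32, 2.04, 1.91 and 1.48 in replicates 4, 5, 6 and 8. The ranges did not overlap, and the means were 4.40 ± 0.810 and 1.69 ± 0.344 (SD, n = 4 each). In compound-deficient replicates 1 to 4 there were 2.38, 3.75, 2.77 and 2.75 reads per 100, and in compound-line wild type 3.66, 2.80, 3.418 and 2.27. These ranges overlapped almost fully, with means of 2.92 ± 0.588 and 3.04 ± 0.630 (SD, n = 4 each). The denominator of this ratio is miR-148a-3p, on which the family was chosen in the Xbp1 line, so nothing is read from the separation there. Over all libraries the ratio ran from 1.32 to 5.59, and how far misassigned reads contribute to it was not tested.

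**Figure D4:**
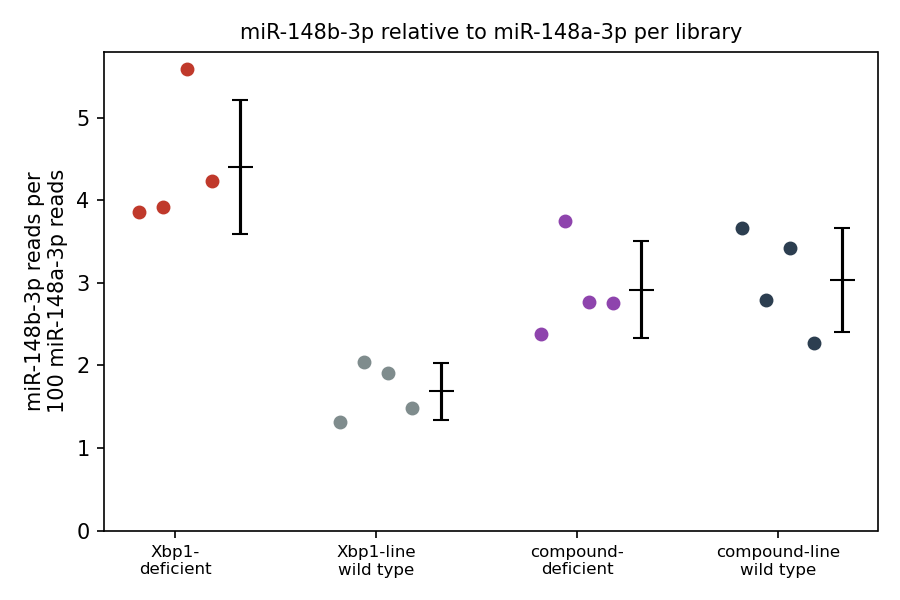
Reads of miR-148b-3p per 100 reads of miR-148a-3p (y axis) in each library (points), by group, with the group mean and SD (bar, n = 4). Xbp1-deficient libraries lie at 3.86 and above and Xbp1-line wild-type libraries at 2.04 and below, while the groups of the compound line overlap.

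Across the 4 groups the mean level of miR-148a-3p was lowest in Xbp1-deficient cells, followed by compound-deficient cells, compound-line wild type and Xbp1-line wild type. Neighbours in that order overlapped for both deficient genotypes and were separate for the other pairs. Compound-deficient cells differed from Xbp1-deficient cells by a log2 difference of 0.14 (SE 0.15), which was −0.11 with upper-quartile scaling and lay 0.0072 above the median of all microRNAs with TMM. Compound-line wild type differed from Xbp1-line wild type by −0.61 (SE 0.15), with no overlap, which in that direction occurred in 1.96% of microRNAs. The change in the compound line minus the change in the Xbp1 line was 0.75 (SE 0.21), or 0.35 with upper-quartile scaling. The levels of the deficient genotypes lay closer to each other than those of the wild types did. All these comparisons hold Xbp1-line libraries, on which the family was chosen, so nothing is read from their size or separation.

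miR-148b-3p followed another order, with compound-deficient cells lowest, then Xbp1-line wild type, Xbp1-deficient cells and compound-line wild type, and all neighbours overlapped. Compound-deficient cells differed from Xbp1-deficient cells by −0.46 (SE 0.22), and compound-line wild type from Xbp1-line wild type by 0.32 (SE 0.22). The change in the compound line minus that in the Xbp1 line was −0.78 (SE 0.31), opposite in sign to that of miR-148a-3p. These comparisons share libraries with those above and with each other.

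**Figure D5:**
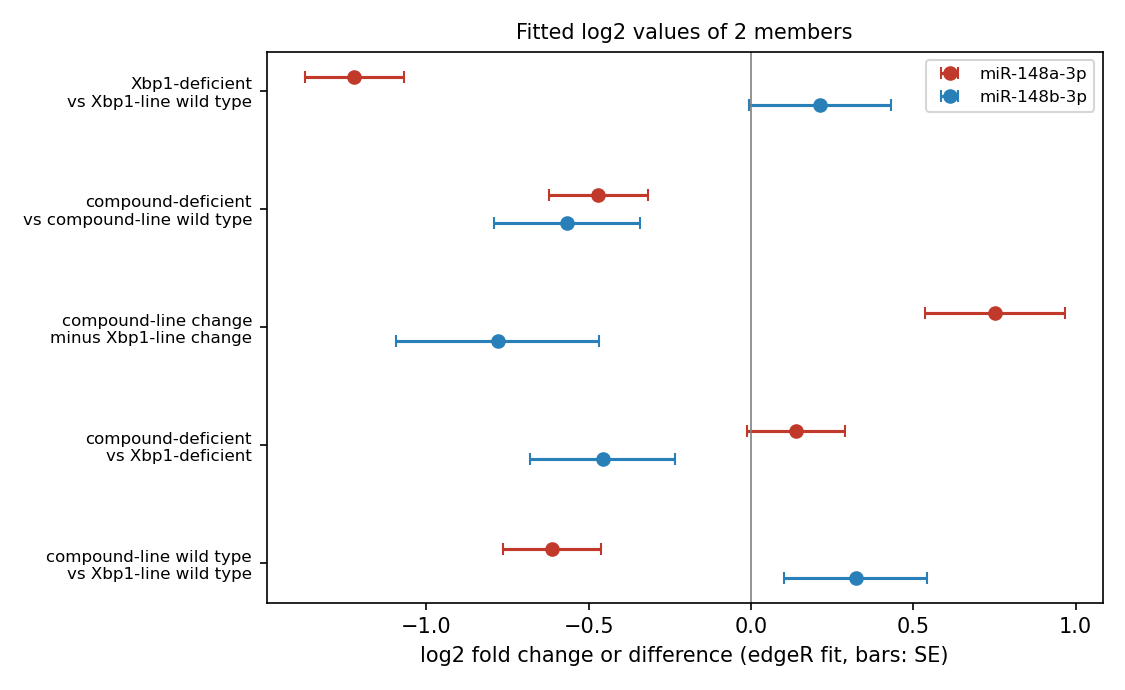
Fitted log2 fold change or difference (x axis, points) with its standard error (bars) for miR-148a-3p and miR-148b-3p in 5 comparisons, from 1 edgeR fit of 16 libraries. The members lie on opposite sides of 0 except in compound-deficient cells against compound-line wild type, where they stand at −0.47 and −0.57, and, with upper-quartile scaling alone, between the deficient genotypes (−0.11 and −0.69). Within 1 SE of 0 lie miR-148b-3p in the Xbp1 line (0.21, SE 0.22) and miR-148a-3p between the deficient genotypes (0.14, SE 0.15).

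The family members were not each other's closest match. Likeness was the root mean square difference of log2 CPM, each microRNA centred on its own mean over the 16 libraries, so that a smaller value means a closer profile. The difference between miR-148a-3p and miR-148b-3p was 0.55 log2 units. That made miR-148b-3p number 57 of 254 for miR-148a-3p, and miR-148a-3p number 100 of 254 for miR-148b-3p. A flat profile would stand closer to each, at 0.50 from miR-148a-3p and 0.32 from miR-148b-3p, so these ranks show no shared profile. The closest profiles to miR-148a-3p were MIMAT0000531 at 0.35, MIMAT0000124 at 0.40 and MIMAT0004617 at 0.40, where the median over all 254 was 0.72. The closest to miR-148b-3p were MIMAT0003727 at 0.19, MIMAT0000160 at 0.23 and MIMAT0000533 at 0.28, with a median of 0.61. The files do not pair these identifiers with names.

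MIMAT0000531 averaged 21579 ± 1101 CPM in Xbp1-deficient cells and 29477 ± 1640.2 CPM in Xbp1-line wild type (SD, n = 4 each). It averaged 16780 ± 1096 CPM in compound-deficient cells and 28674 ± 3733 CPM in compound-line wild type, a log2 fold change of −0.77 with an edgeR adjusted p of 0.000178. MIMAT0000124 averaged 435.9 ± 33.4 CPM in Xbp1-deficient cells and 591 ± 129 CPM in Xbp1-line wild type. In the compound line its means were 444 ± 32.6 CPM in deficient cells and 544 ± 122 CPM in wild type. Its compound-line log2 fold change of −0.29 did not pass (edgeR adjusted p 0.462). These microRNAs were picked for likeness to miR-148a-3p over the same libraries, so their p-values add no support. MIMAT0004617 was far scarcer, at 31.4 ± 7.88 CPM in Xbp1-deficient cells and 74.4 ± 44.2 CPM in Xbp1-line wild type. It stood at 42.0 ± 12.5 CPM in compound-deficient cells and 51.8 ± 21.0 CPM in compound-line wild type, a log2 fold change of −0.28 that did not pass (edgeR adjusted p 0.783).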

How the data were processed

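Per the labels' protocols, 5000 to 50000 cDC1s per sample were sorted into Qiazol, followed by TruSeq small RNA library preparation. Tools named in the submitters' processing notes are Bowtie 1.1.2, cutadapt 1.8.1, limma 3.42.2 and FastQC 0.11.3, with the builds GRCm38 and mm10 and no roles. The authors deposited raw counts for 853 mature microRNAs, and log2 values for 473 of them, which from the values are log2 CPM on TMM-scaled sizes, with constants within 1.47e-15 of recomputed ones.

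The main fit was edgeR 4.0.16 in R 4.3.3: TMM, filterByExpr by group (count minimum 10), 16 libraries, 4 group means, no replicate block, two-sided quasi-likelihood F tests, and Benjamini-Hochberg adjustment over the 255 microRNAs left, which held at least 99.865% of each library's counts. DESeq2 1.42.0 and limma 3.58.1 were among the alternatives. The steps were tested on simulated data. No pair of libraries within a group agreed to within counting noise. Molecular identifiers are not given, so counts may include PCR copies.

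The members and lists were chosen with earlier results of these data known. The naming rule took the members, the other arms of their hairpins, miR-130a-3p and its relatives, and the 3 closest profiles per tested member. The lists of other arms, of miR-130a-3p and its relatives, and of cell type markers were not used, because 0 of the identifiers are paired with names in the reference.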

Additional observations from a re-analysis of the deposited data

How the results depend on the processing

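Neither tested member changed sign against the wild type of either line under any alternative run. For miR-148a-3p in compound-deficient cells against wild type, DESeq2 passed (log2 fold change −0.48). In edgeR it passed with total counts (−0.58), upper-quartile scaling (−0.75), a filter of 10 CPM in 4 libraries (−0.53) and the compared groups alone (−0.51). It also passed with 12 of the 15 other TMM references. The lowest edgeR adjusted p among them, 0.0182, came with Xbp1-line wild-type replicate 6 (−0.56). Leaving out 1 library, with tested rows and scaling held, gave −0.53 to −0.42, and none passed (lowest edgeR adjusted p 0.050049). These runs kept the main TMM reference, which with all libraries gave a higher edgeR adjusted p (0.0815) than any of the 15 others. For miR-148b-3p upper-quartile scaling gave −0.82, and leaving out 1 library gave −0.73 to −0.42. In the Xbp1 line miR-148a-3p ran from −1.33 to −1.09 and miR-148b-3p from 0.10 to 0.33 over 28 alternatives.

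The count of microRNAs called in the compound line, 15, was 24 with upper-quartile scaling, 24 with DESeq2, 1 with limma on the deposited log2 values, 9 with the compared groups alone, and 5 to 18 with 1 library left out (5 without compound-deficient replicate 3). In the Xbp1 line, 6 were called. The count was 15 without the filter, 18 with DESeq2, 3 with the deposited log2 values, 11 with the compared groups alone, and 2 to 9 with 1 library left out (2 or 3 without Xbp1-deficient replicate 1 or 3, or wild-type replicate 6 or 8). The runs on the deposited log2 values covered 473 microRNAs, and the cause of these shifts was not tested.

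With the replicate number as a block in the compound line, 4 microRNAs were called, and miR-148a-3p was at −0.51 (edgeR adjusted p 0.0847) and miR-148b-3p at −0.58 (0.407). Same-numbered libraries correlated at 0.11, −0.26, 0.26 and 0.01 in their deviations, and were the closest match for number 3 alone. So few correlations cannot settle if the numbers pair the libraries. In the Xbp1 line no paired analysis was possible because its groups share 1 number. miR-152-3p did not pass the filter and has no value here.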
